A study of Homo sapiens with 8 samples.

Results

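The enzymes of de novo fatty acid synthesis were followed in renal carcinoma cells given A939572, an inhibitor of stearoyl-CoA desaturase 1, or the solvent DMSO. They were ACLY, ACSS2, ME1, ACACA, ACACB, FASN, HSD17B12 and TECR. A probe set was taken as a member when the array's annotation gave it to exactly 1 of these 8 genes, which selected 24 of the 41091 probe sets with 1 gene symbol. The arrays held 54675 probe sets in all, and a probe set is a group of short probes that together give 1 signal for a transcript. The cells were 4 established human kidney cancer lines (ACHN, CAKI2, A498, CAKI1), labelled clear cell carcinoma and kept in DMEM with fetal serum. Each line gave 1 array of cells treated with 75 nM A939572 for 24 h and 1 array of DMSO control cells, so 4 arrays stood against 4. The labels name no separate cultures within a line. The lines are therefore the replicates, and no test is possible within one of them.

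Cells build saturated fatty acids from acetyl-CoA. ACLY splits cytosolic citrate into acetyl-CoA and ACSS2 makes acetyl-CoA from acetate, while malic enzyme, encoded by ME1, supplies NADPH. The acetyl-CoA carboxylases ACACA and ACACB turn acetyl-CoA into malonyl-CoA, ACACA in the cytosol for synthesis and ACACB at the mitochondrion, where malonyl-CoA restrains fatty acid oxidation. FASN joins these units into palmitate. At the endoplasmic reticulum HSD17B12 and TECR carry out the first and the last reduction of the cycle that lengthens palmitate further, and the stearate made there is the main substrate of the desaturase that A939572 inhibits. Transcription of several of these genes is driven by the SREBP factors together with NF-Y, which binds CCAAT boxes, and Sp1, which binds GC boxes.

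Transcripts of 5 of the 8 enzymes were lower with the drug. In their brightest probe sets ACSS2, ACLY, FASN, TECR and ACACA fell, and ACACB, ME1 and HSD17B12 did not pass the test. Thus 5 of 8 genes were called lower and 0 higher, by the adjusted test and at an unadjusted p under 0.05 alike. The call of ACACA was lost with any line left out. The other tested probe set of TECR was higher in 4 of 4 lines and not called (0.21 ± 0.11). Over all 12093 genes tested, 30.6% were called, 15.9% lower and 14.7% higher. The median log2 difference, A939572 minus DMSO, was -0.60 over the 8 genes and -0.03 over all genes tested. All calls in the text come from limma with the cell line as a block and Benjamini-Hochberg adjustment at 0.05, and errors are SDs over 4 lines. Levels and differences were taken as log2(signal + 16) after quantile normalization, an offset that understates changes of dim probe sets, while signals are quoted as deposited. RNA came from whole cultures, so fewer cells with a transcript and less of it per cell cannot be told apart. Of the 8 genes, 6 were lower in 4 of 4 lines, as were 25.3% of all genes tested.

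The arrays themselves differed with treatment. For ACTB, the signal of the 3′ control probe set over that of the 5′ one was 3.02 to 4.22 on treated arrays and 2.12 to 2.33 on DMSO arrays, and that of GAPDH was 1.01 to 1.11 and 0.962 to 1.05. The part of this in the falls given above was not tested. PAX8, a kidney lineage factor, had signals of 4079 to 8278 over the 8 arrays and was called higher with the drug (0.38 ± 0.19). VIM, typical of these carcinomas, had 33034 to 44649.8 (0.06 ± 0.11). PAX2 (-0.43 ± 0.33), KRT8 (-0.49 ± 0.47) and KRT18 (-0.33 ± 0.37) were each lower in 3 of 4 lines and not called. The median of the 5 tested was -0.33, and at an unadjusted p under 0.05, 1 was higher and 2 were lower. Summed over the 5 of 6 renal carcinoma markers with a probe set, signals were 49788 to 66174 in treated cells and 53516 to 70862 in DMSO. The 15 markers of leukocytes, endothelium, fibroblasts, adipocytes and hepatocytes summed to 770.03 to 1474 in treated cells and 884 to 1829 in DMSO, and 13 of them lay below the filter. None was listed at 0. The leukocyte marker PTPRC reached at most 35.7, but PECAM1 had signals of 106 to 444 and COL1A1 of 27.8 to 1257. PECAM1 lay above the array median on 8 of 8 arrays and COL1A1 on 7 of 8. Among the 15 markers, COL1A1 was called lower (-1.04 ± 0.36) and PECAM1 was not called (-0.21 ± 0.20).

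Promoter sequences are shown for ACLY and TECR, both lower with the drug, and for ME1, which was not called. RefSeq windows of 300 bases on GRCh38.p14, from 250 bases before to 50 after an annotated start, matched 6 of the 8 genes with 12 windows. ACACA had 3 starts, ACLY, ACACB, ACSS2 and TECR had 2 each, and ME1 had 1. FASN and HSD17B12 had no entry. The windows printed are ACLY start 1 (chr17:41918973-41919272, minus strand), TECR start 1 (chr19:14529344-14529643, plus strand) and ME1 (chr6:83431002-83431301, minus strand). Each is written along the gene's strand with the CCAAT box and the GC box GGGCGG, on either strand, in capitals.

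ACLY: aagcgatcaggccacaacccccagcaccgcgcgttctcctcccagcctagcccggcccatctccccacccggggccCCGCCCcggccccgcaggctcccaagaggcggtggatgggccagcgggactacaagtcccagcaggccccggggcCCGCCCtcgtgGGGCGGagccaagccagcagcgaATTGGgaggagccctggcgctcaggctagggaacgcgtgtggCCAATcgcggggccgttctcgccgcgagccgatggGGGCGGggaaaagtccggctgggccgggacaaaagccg

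TECR: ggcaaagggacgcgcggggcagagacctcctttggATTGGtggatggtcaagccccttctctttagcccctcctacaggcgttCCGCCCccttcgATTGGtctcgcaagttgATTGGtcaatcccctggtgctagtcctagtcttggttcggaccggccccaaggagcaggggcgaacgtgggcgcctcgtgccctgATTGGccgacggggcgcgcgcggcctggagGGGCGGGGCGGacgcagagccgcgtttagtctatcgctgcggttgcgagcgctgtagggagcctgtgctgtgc

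ME1: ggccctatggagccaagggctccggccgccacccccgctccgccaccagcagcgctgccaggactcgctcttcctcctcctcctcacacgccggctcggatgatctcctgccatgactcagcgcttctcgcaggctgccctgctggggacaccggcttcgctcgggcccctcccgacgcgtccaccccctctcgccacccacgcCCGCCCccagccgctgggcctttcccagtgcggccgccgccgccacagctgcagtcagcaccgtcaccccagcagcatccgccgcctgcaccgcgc

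CCAAT was found in 8 of the 12 windows, against 34.6% of the 35116 windows in the table. By gene it was in 5 of the 6, ME1 being the exception, and no share by gene was computed for comparison. The ACLY window holds it 2 times, 65 bases before the start on the reverse strand and 23 bases before it on the forward strand. The TECR window holds 4 copies, all on the reverse strand. ACACB, which was not called, has 2 copies at start 2. ACACA at start 1 and ACSS2 at start 2, both genes called lower, have none. GGGCGG was found in 10 of the 12 windows, against 45% of all windows. All 6 genes held it, and copies overlap one another in TECR and in ACACA at starts 1 and 2. Both strands were searched, and windows from neighbouring starts of a gene overlap in part, so the counts are not independent. The member windows held 45.3% to 82.3% G and C. The sterol regulatory element letters TCACNCCAC, the E-box CACGTG and the element TGANGCAA bound by ATF4 with a C/EBP factor were absent from the 12 windows. They occur in 1.13%, 7.26% and 3.22% of all windows. Such matches describe letters only.

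**Figure D1:**
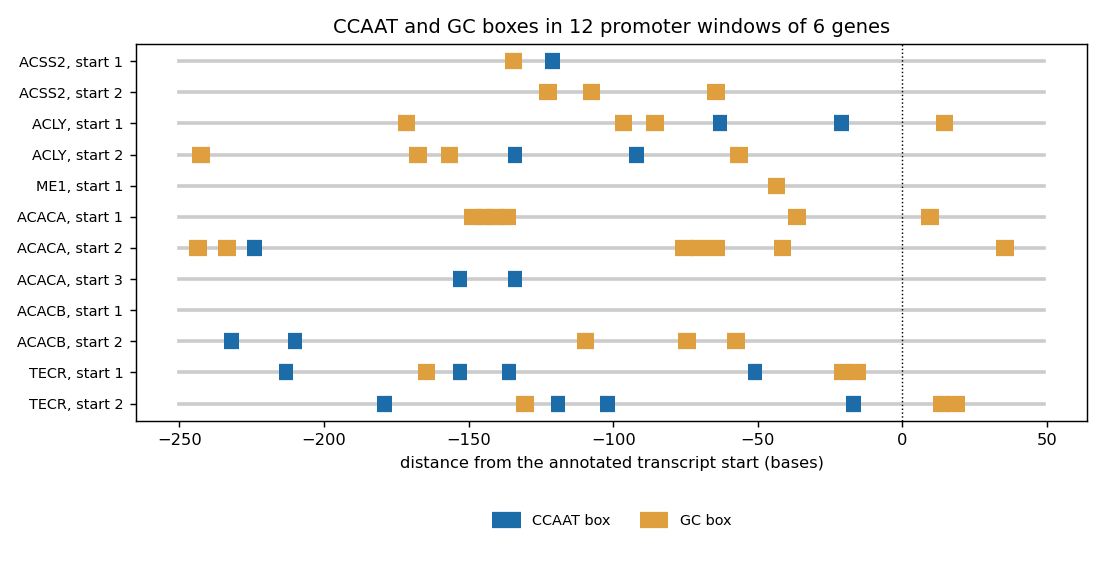
CCAAT boxes (blue) and GC boxes (orange) in the 12 promoter windows of 6 genes, by distance in bases from the annotated start (dotted line). ME1 has 1 GC box and no CCAAT box, and TECR has 4 CCAAT boxes in each window.

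Both genes of acetyl-CoA supply fell. ACSS2 had 1 probe set, with signals of 135, 221, 264 and 259.8 in A939572-treated ACHN, CAKI2, A498 and CAKI1, against 344, 448, 376 and 754 in the same lines in DMSO. Treated and DMSO arrays did not overlap. The log2 difference was -1.02 ± 0.41, or 0.493-fold (limma adjusted p = 0.00419), the 423rd lowest of 12093. It was -1.46 in CAKI1 and -0.49 in A498. CAKI1 was also the line with the highest DMSO signal.

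ACLY was bright and its 3 probe sets fell together. The brightest had 8976, 6509.96, 10710.4 and 6169 in treated ACHN, CAKI2, A498 and CAKI1, against 16794, 12378, 18066 and 11712 in DMSO. Every line was lower with the drug. After normalization, levels were 12.57 to 13.49 in treated cells and 13.48 to 14.12 in DMSO, so that treated A498 just reached DMSO CAKI1. The log2 difference was -0.83 ± 0.13 or 0.562-fold (limma adjusted p = 0.000487), with -0.63 in A498 and -0.89 to -0.91 in the other lines. The next probe set had 2098, 1369.67, 2752 and 1482 in the same treated lines, against 4375, 2574, 4513 and 2687 in DMSO. The last had 1378, 879, 1977 and 925 in treated cells, against 2809, 1667, 3297 and 1873 in DMSO. In both, A498 held the highest treated signal, one that lay above the DMSO signals of CAKI2 and CAKI1. Their log2 differences were -0.91 ± 0.14 and -0.94 ± 0.12 (limma adjusted p over probe sets = 0.000768 and 0.000776). All 3 carry an ID ending in _s_at, the design's mark for probes shared by more than 1 transcript. So do the probe set of ACSS2 and the brightest ones of FASN, TECR and ME1, of which ME1 was not called.

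ME1, on the NADPH side of the same supply, did not pass. Its brightest probe set had 8808, 8807, 7579.74 and 6017 in treated ACHN, CAKI2, A498 and CAKI1, against 6496, 8432, 8568 and 5054 in DMSO. The groups overlapped widely. The log2 difference was 0.17 ± 0.23 (adjusted p = 0.286), with a 95% interval of -0.08 to 0.43 and a range over lines from -0.11 in A498 to 0.42 in ACHN. The next probe set had 5395, 6462, 5019 and 3313 in treated cells, against 4019, 6689.96, 5227 and 3138 in DMSO, a difference of 0.09 ± 0.21 (limma adjusted p = 0.618). In both, CAKI1 was the lowest line under either condition and ACHN had the strongest difference. The third, at 36.4 or below on every array, was too dim to be tested.

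**Figure D2:**
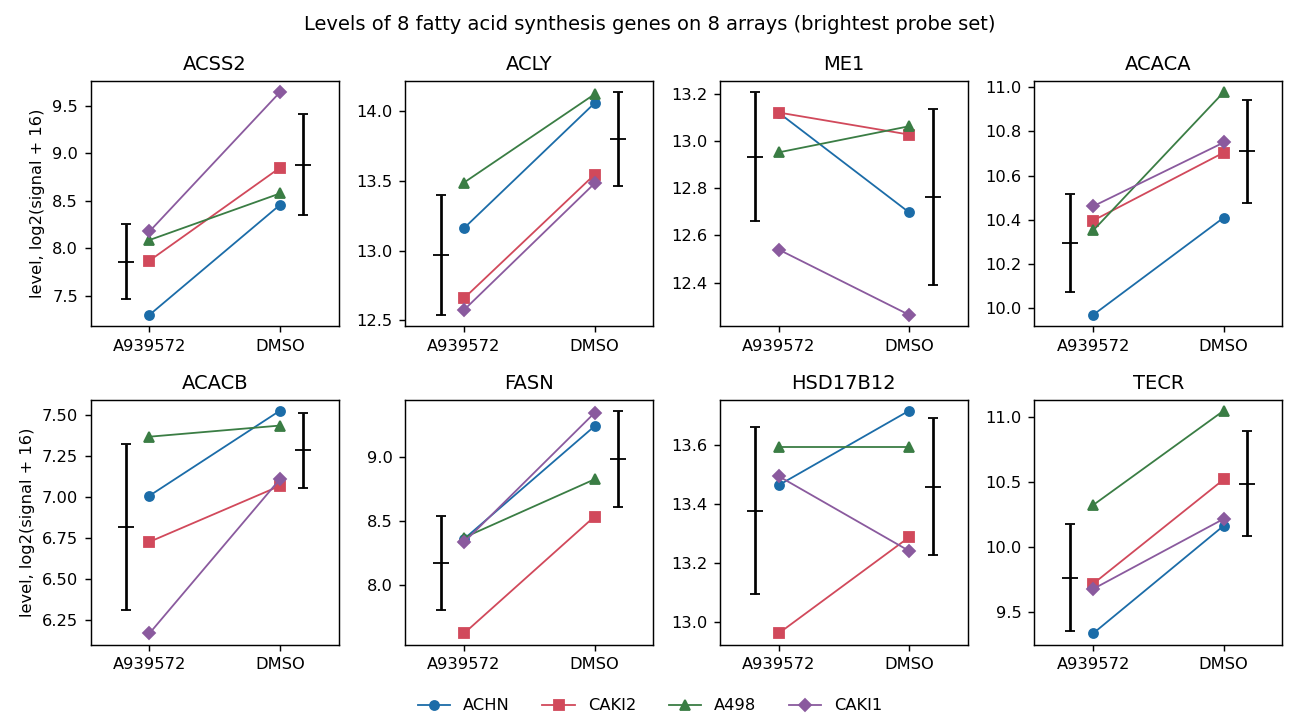
Levels of the 8 genes, log2(signal + 16), on each array, with A939572 at the left and DMSO at the right of every panel. Coloured lines join the 2 arrays of a cell line, and black bars are the mean ± SD of 4 arrays; ACSS2 and FASN are the 2 genes whose treated and DMSO arrays do not overlap.

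Of the carboxylases, ACACA fell by a small margin. Its brightest probe set had 1002, 1334, 1323 and 1387 in treated ACHN, CAKI2, A498 and CAKI1, against 1366, 1609, 1962 and 1701 in DMSO. Each line was lower, but treated CAKI1 lay above DMSO ACHN. The log2 difference was -0.41 ± 0.16 (limma adjusted p = 0.0338), between -0.62 in A498 and -0.29 in CAKI1. The dimmer probe set had 272, 458, 199 and 256 in treated cells, against 575, 535, 411 and 405 in DMSO. There treated CAKI2 lay above DMSO A498 and CAKI1, while the other treated arrays lay below all DMSO arrays. Its log2 difference was -0.71 ± 0.37 (limma adjusted p over probe sets = 0.0169), with -0.99 in ACHN, -1.01 in A498 and -0.24 in CAKI2, and the call was lost without ACHN (0.0737) or A498 (0.0701). The gene's call was lost with any of the lines left out (adjusted p = 0.0584 to 0.134) and with arrays centred on their medians (adjusted p = 0.0853).

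ACACB was dim in all lines. Its brightest probe set had signals of 106, 89.3, 154 and 53.0 in treated ACHN, CAKI2, A498 and CAKI1, against 169.6, 122, 170.6 and 116 in DMSO. The array medians lay between 68.6 and 84.2. All 4 lines were lower, by a log2 difference of -0.47 ± 0.37 that did not pass (adjusted p = 0.186, 95% interval -1.02 to 0.09). Of its 7 probe sets 4 were bright enough to be tested and 0 were called. The second had 81.2, 59.9, 57.5 and 72.0 in treated cells, against 109.98, 116, 105 and 70.9 in DMSO (-0.39 ± 0.34). The third had 84.8, 57.0, 63.7 and 41.3 in treated cells, against 98.2, 110.04, 134 and 86.9 in DMSO, and its groups did not overlap (-0.61 ± 0.37, adjusted p = 0.124). CAKI1 was the line with the strongest difference in the brightest probe set and the weakest in the second. The fourth had 152, 130.3, 31.7 and 21.6 in treated cells, against 169.7, 44.98, 38.2 and 231 in DMSO. Its log2 difference was 1.28 in CAKI2 and -2.76 in CAKI1, a disagreement between lines that no other tested member probe set showed to that size.

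FASN fell in its 1 tested probe set. Signals were 307, 184, 322 and 292 in treated ACHN, CAKI2, A498 and CAKI1, against 591, 359.7, 447 and 615 in DMSO. The groups did not overlap, and CAKI2 was lowest under both conditions. The log2 difference was -0.81 ± 0.25 or 0.570-fold (limma adjusted p = 0.00557), with -0.45 in A498 and -0.88 to -1.01 in the others. The second FASN probe set lay below the filter, with signals of 11.4 to 62.1 in treated cells and 10.7 to 109.5 in DMSO, and had -0.03 ± 1.03. Treated levels of ACSS2 and FASN both lay below all DMSO levels, as did those of 4.94% of all genes tested.

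Of the elongation enzymes, TECR fell and HSD17B12 was not called in its tested probe set. TECR had 627, 834, 1294 and 789 in treated ACHN, CAKI2, A498 and CAKI1, against 1139, 1421, 2067 and 1153 in DMSO, a log2 difference of -0.73 ± 0.13 or 0.605-fold (limma adjusted p = 0.00297). Every line was lower, from -0.83 in ACHN to -0.54 in CAKI1, and treated A498 alone reached the DMSO range. Its other probe set, with signals of 64.7 to 131.7 treated and 46.7 to 124 in DMSO, went the other way without passing (0.21 ± 0.11, adjusted p = 0.574), higher in 4 of 4 lines. HSD17B12 had 11068, 7960.39, 11451 and 11906 in treated ACHN, CAKI2, A498 and CAKI1, against 13224, 10297, 12624 and 9964 in DMSO. The groups overlapped, and CAKI1 was the line that was higher with the drug. The log2 difference was -0.08 ± 0.26 (adjusted p = 0.627, 95% interval -0.34 to 0.18), and its 3 other probe sets were too dim to be tested. The brightest of those, at a mean level of 6.32 just under the filter at 6.41, had 23.3, 47.2, 51.7 and 67.9 in treated cells, against 58.4, 118.6, 93.8 and 89.9 in DMSO. It was lower in 4 of 4 lines (-0.67 ± 0.29), while the other 2 had 0.24 ± 0.91 and -0.24 ± 0.45.

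**Figure D3:**
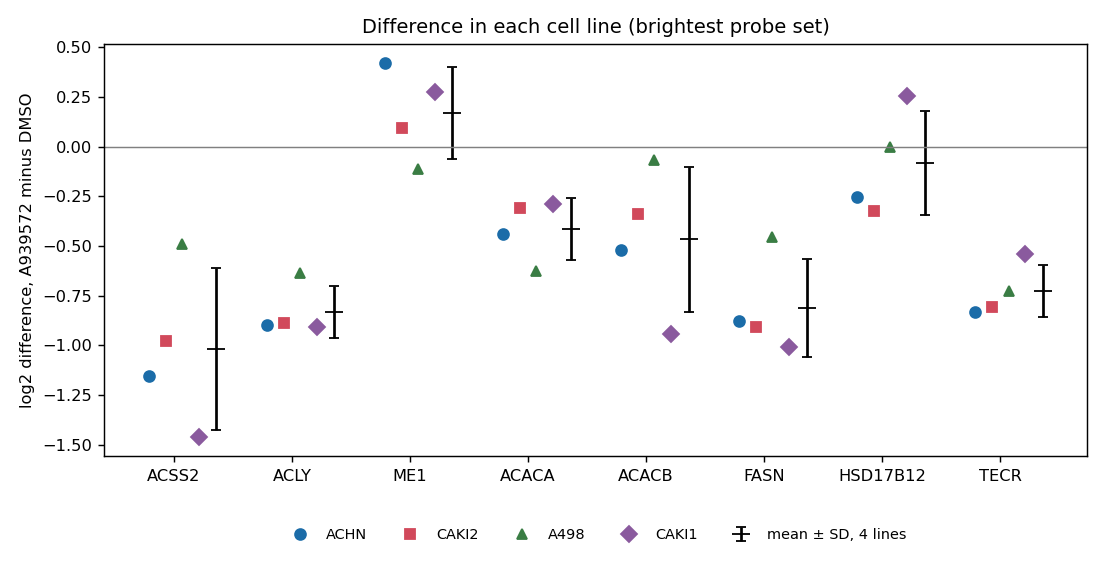
Log2 difference, A939572 minus DMSO, in each of the 4 lines (coloured symbols) and its mean ± SD (black) for the brightest probe set of each gene. ACSS2, ACLY, ACACA, ACACB, FASN and TECR lie below 0 in all 4 lines, and A498 is the line nearest 0 for ACSS2, ACLY, ACACB and FASN.

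The lines did not keep one order of response. Among the 5 genes called lower, CAKI1 had the strongest difference for 3 (ACSS2, ACLY and FASN) and the weakest for 2 (ACACA and TECR). A498 had the weakest difference for ACSS2, ACLY and FASN and the strongest for ACACA. With 1 array per line and treatment, a difference in response between lines could not be tested. The median log2 difference of the 8 genes was weakest in A498 (-0.47), followed by CAKI2 (-0.57), ACHN (-0.67) and CAKI1 (-0.72), and that of all genes tested lay between -0.04 and -0.01.

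Of the 24 member probe sets, 16 passed the filter, 8 were called lower and 0 higher, and the 8 others were too dim to be tested. Over all 27307 probe sets tested, 26% were called, 13% lower and 13% higher. The 8 called were all 3 of ACLY, both of ACACA and 1 each of FASN, ACSS2 and TECR. Mean differences over the 24 ran from -1.27 in a dim probe set of ACACB to 0.24 in a dim one of HSD17B12.

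**Figure D4:**
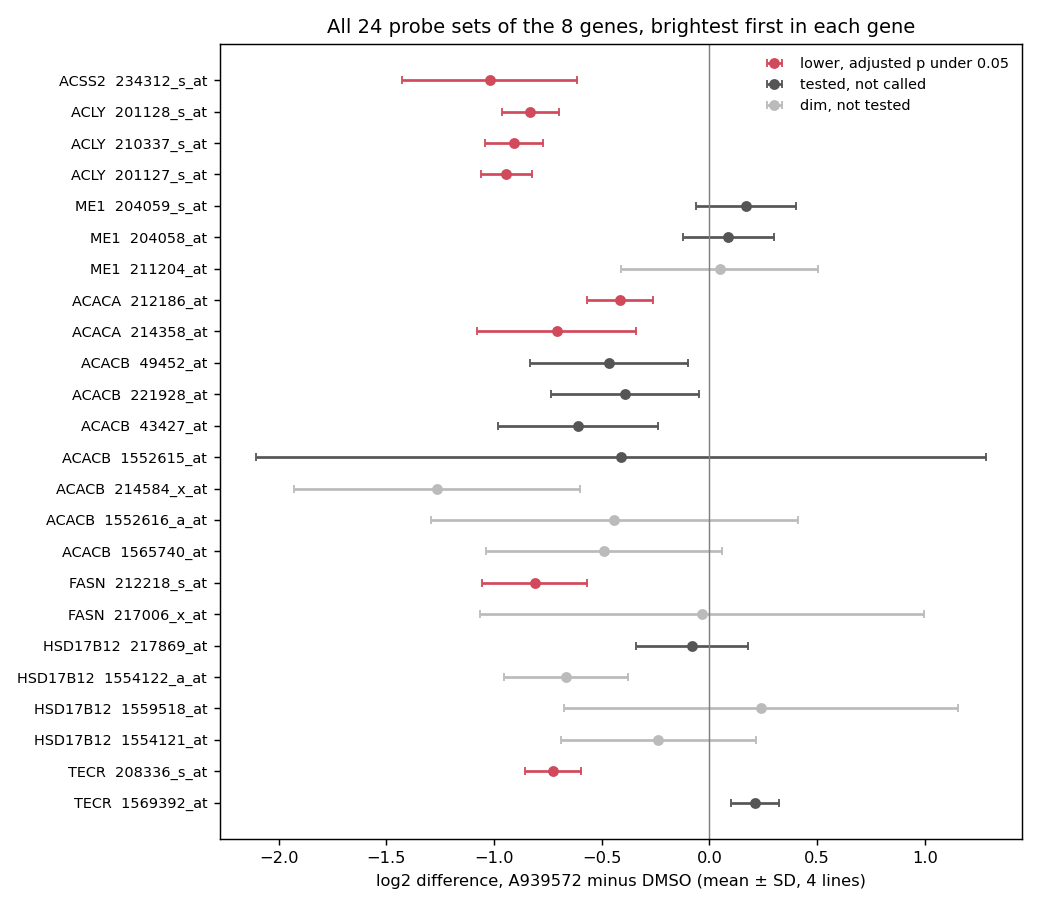
Log2 difference, A939572 minus DMSO (mean ± SD over 4 lines), of all 24 probe sets, brightest first within each gene. Red marks the 8 called lower, dark grey those tested and not called, and light grey the 8 too dim to be tested. The widest spread over lines is that of the fourth ACACB probe set, which was tested and not called.

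Levels of some of these transcripts also differed between lines, as did those of most genes tested. In a limma F test on the cell line terms, with treatment in the model, 4 of the 8 genes passed, against 61% of all genes tested. With arrays centred on their medians 2 passed, ME1 (adjusted p = 0.080) and ACSS2 (0.0596) being lost, and with treatment left out of the model 0 passed. Each line enters with its treated and its DMSO array, so this test takes the spread left after treatment as its error. ACLY was highest in A498, at a mean level of 13.80, and lowest in CAKI1, at 13.03 (F test adjusted p = 0.00212). ACHN stood above CAKI2 by 0.51 (adjusted p = 0.0162), while A498 and ACHN, and CAKI2 and CAKI1, did not differ beyond their spread. TECR was highest in A498, 0.57 above CAKI2 (adjusted p = 0.0365), and CAKI2, CAKI1 and ACHN followed with no step that passed. ME1 was lowest in CAKI1, 0.51 below ACHN (adjusted p = 0.0435), with CAKI2, A498 and ACHN close together above. ACSS2 ran from 8.91 in CAKI1 through CAKI2 and A498 to 7.88 in ACHN (F test adjusted p = 0.0464), with no neighbouring step past the threshold, and its F test was also lost without quantile normalization (0.0644) and with an offset of 1 (0.0511). FASN was 0.52 lower in CAKI2 than in A498, the next line, without passing (F test adjusted p = 0.0512). ACACA, ACACB and HSD17B12 had F test adjusted p = 0.128, 0.23 and 0.0761, with ACHN lowest for ACACA, CAKI1 for ACACB and CAKI2 for HSD17B12.

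Genes that feed the pathway with citrate and NADPH fell in part. Of 13 listed, 11 were tested, 5 were called lower and 0 higher, with a median log2 difference of -0.40. Among all genes tested, 15.9% were called lower and 14.7% higher, with a median of -0.03. The mitochondrial citrate carrier SLC25A1, which exports the substrate of ACLY, had 299, 481, 355 and 259.8 in treated ACHN, CAKI2, A498 and CAKI1, against 647, 948, 684 and 706 in DMSO, with no overlap between the groups. It fell by 1.08 ± 0.20 on the log2 scale (limma adjusted p = 0.00101). Isocitrate dehydrogenase IDH2 had -0.99 ± 0.37, cytosolic aconitase ACO1 -0.81 ± 0.13 and phosphogluconate dehydrogenase PGD -0.58 ± 0.53, all called. PGD was lower in ACHN, CAKI2 and A498 (-0.76 to -0.90) and had 0.21 in CAKI1, and its call was lost without any of those 3 lines. MDH1, the cytosolic malate dehydrogenase, was named after its value was seen, as the remaining call (-0.40 ± 0.08). Cytosolic IDH1 (0.12 ± 0.37) and malic enzyme ME2 (0.10 ± 0.32) were not called, and neither was ME1. The dimmest of 3 tested IDH1 probe sets was called higher (0.78 ± 0.60, limma adjusted p over probe sets = 0.0337), and the second of ACO1 was not called (-0.66 ± 0.70).

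Partners of HSD17B12 and TECR in the elongation cycle fell in part. Of 11 listed, 8 were tested, 4 were called lower and 0 higher, with a median of -0.59. The shares among all genes tested were 15.9% lower and 14.7% higher, with a median of -0.03. The condensing enzymes ELOVL2 (-1.15 ± 0.36) and ELOVL6 (-1.06 ± 0.61) and the dehydratases HACD2 (-0.64 ± 0.25) and HACD3 (-0.55 ± 0.26) were those called, and each was lower in 4 of 4 lines. ELOVL6, which lengthens palmitate, had 923, 6312, 2939.93 and 453 in treated ACHN, CAKI2, A498 and CAKI1, against 3081, 7827, 5358 and 1139.9 in DMSO. CAKI2 was high and CAKI1 low under both conditions, and the groups overlapped. ELOVL2, which lengthens polyunsaturated chains, had 473, 374, 380.2 and 324 in treated cells, against 1122, 1063, 907 and 522 in DMSO, with no overlap. All of their other tested probe sets were called lower too. ELOVL5 had -0.21 ± 0.21, ELOVL7 -0.29 ± 0.38 and ELOVL4 0.09 ± 0.22, none called, and HACD4 was not called either.

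The separate mitochondrial route of fatty acid synthesis, which makes the precursor of lipoic acid, showed no call, against 30.6% of all genes tested. Of 10 genes listed 8 were tested, with a median of 0.02, and 0 passed limma in either direction, with 2 higher and 0 lower at an unadjusted p under 0.05. Those 2, named after their values were seen, were the ketoacyl synthase OXSM (0.38 ± 0.14, adjusted p = 0.0519) and the lipoic acid synthase LIAS (0.43 ± 0.44, adjusted p = 0.0976). OXSM was higher in 4 of 4 lines.

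Most regulators of these enzymes were not called. Of 24 listed, 20 were tested, 4 were called higher, 1 lower and 15 not called, with a median of 0.07. Over all genes tested, 14.7% were called higher and 15.9% lower. TRIB3, a pseudokinase that promotes degradation of acetyl-CoA carboxylase in mouse adipose tissue, rose by 1.32 ± 0.49 (limma adjusted p = 0.000738), from 0.89 in A498 to 1.91 in ACHN. The β subunits of AMP-activated kinase, which phosphorylates and inhibits the carboxylases, rose, PRKAB2 by 0.73 ± 0.31 and PRKAB1 by 0.65 ± 0.24. The catalytic subunits of the kinase had -0.20 ± 0.17 (PRKAA1) and 0.26 ± 0.35 (PRKAA2), not called. Their other tested probe sets, none called, ran from -0.22 to 0.50 for PRKAA1 and from -0.41 to 0.45 for PRKAA2. PRKAB1 had 0.18 ± 0.55 in its other tested probe set. INSIG1, which retains SREBP in the endoplasmic reticulum and is itself an SREBP target, had 3879, 8455, 7791 and 7193 in treated ACHN, CAKI2, A498 and CAKI1, against 8696, 9398, 18215 and 12180.4 in DMSO. In this probe set treated signals lay below all DMSO signals, as treated levels did for 4.94% of all genes tested. INSIG1 fell there by 0.79 ± 0.50, between -1.20 in ACHN and -0.10 in CAKI2. Its other tested probe sets were called lower too (-1.04 ± 0.58 and -0.61 ± 0.54), but treated CAKI2 lay above DMSO ACHN in both. INSIG2, a relative of INSIG1 named after its value was seen, rose by 0.44 ± 0.28, a call lost without ACHN, A498 or CAKI1. SREBF1 had 0.07 ± 0.47 (adjusted p = 0.807), and the 3 tested probe sets of SREBF2 had -0.28 ± 0.58, -0.02 ± 0.06 and -0.45 ± 1.53, none called. MID1IP1, which promotes polymerization of acetyl-CoA carboxylase, had 0.03 ± 0.20. THRSP and MLXIPL were too dim to be tested.

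**Figure D5:**
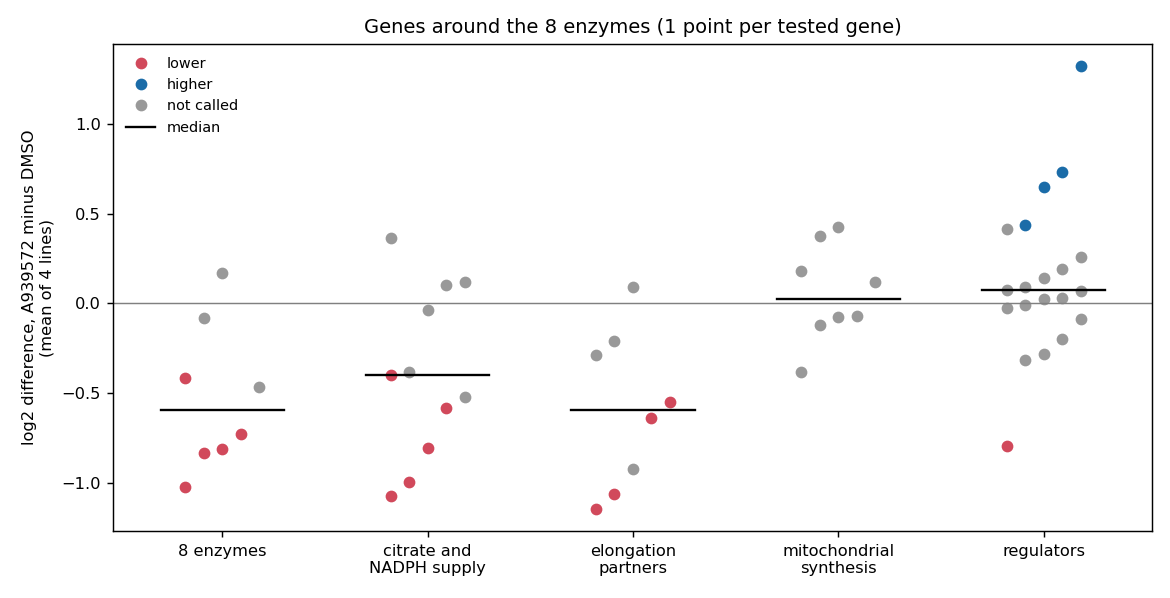
Mean log2 difference over 4 lines, A939572 minus DMSO, of the 8 enzymes and of the tested genes on 4 neighbouring lists, 1 point per gene, red for lower, blue for higher and grey for not called, with black lines at the medians. The 8 enzymes, the citrate and NADPH genes and the elongation partners have medians of -0.60, -0.40 and -0.59, against 0.02 for the mitochondrial route and 0.07 for the regulators.

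Genes whose profile over the 8 arrays lay nearest to those of 4 of the enzymes were found by distance. Nearness was the root mean square distance in log2 units after each gene's own mean had been removed. Nearest to ACLY were VOPP1 (0.124), the spindle factor TPX2 (0.132) and the replication protein gene RPA3 (0.139), where ACLY itself spread by 0.533. REEP3 (0.154), DNAJC9 (0.156) and FUCA1 (0.173) were nearest to FASN. ACACA had MEAF6 (0.0815), ZYG11B (0.0959) and RGS19 (0.119), and ACSS2 had the adaptor subunit AP2M1 (0.175), PLCXD1 (0.197) and GATD1 (0.215). All 12 were lower with the drug on average, with log2 differences of -1.02 to -0.34. The treatment difference is part of the profile, so this direction follows from how the 12 genes were picked. They also share the arrays and the cell line levels with the enzymes.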

How the data were processed

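RNA of 4 cell lines, each with A939572 or DMSO, was hybridized as biotin-labelled cRNA to 8 one-colour arrays, per the labels' protocols. The deposited values are linear signal intensities of 54675 probe sets, as the authors made them. Their 2% trimmed mean was 500.067 to 500.073 on every array, and the summarization program is not given in the sources used here. Signals were taken as log2(signal + 16) and quantile normalized without 62 control probe sets. Symbols came from the platform annotation: 41091 probe sets had 1, 1801 several and 11721 none. Of those with 1, 41037 were matched to a current symbol through their Entrez ID.

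A gene was represented by its brightest probe set with 1 symbol, and tested when its mean level reached 6.41, the median over probe sets, which left 12093 of 19775 genes. The fit used limma 3.58.1 in R 4.3.3, with a variance trend, the cell line as a block and Benjamini-Hochberg adjustment at 0.05 over all genes, or over 27307 probe sets for probe-set results. The F test took the line terms of the same fit. The block was used because the arrays with one replicate number come from one cell line. Deviations of a line's arrays from their group means correlated at 0.818 to 0.864. The median SE was 0.165. An exact test on 4 pairs cannot go below p = 0.125 (2-sided). Intensities carry no counts, so the number of arrays limits the precision.

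Member genes, gene lists and tests were chosen with earlier results of these data known, and a pattern shown before is no independent support. Genes named from the lists were, by rule, the called genes with the largest differences, up to 4 per list, with INSIG1, MID1IP1, SLC25A1, SREBF1 and SREBF2 always; all other list genes given with values were named after the values were seen. Alternatives were other offsets, scalings, filters and probe-set rules, no block, and each line left out. The code was tested on simulated data. RefSeq promoter windows are on GRCh38.p14. Figures were drawn with matplotlib 3.10.9.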

Additional observations from a re-analysis of the deposited data

Results flagged for a closer look

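In 24 groups of 4 values, being the treated levels, the DMSO levels and the differences of the 8 enzymes, 2 held a line whose gap to the nearest other line exceeded the 95% limit of Dixon's test for 4 values. Chance flags about 1 in 20 such groups. The first was the log2 difference of ACLY, where A498 had -0.63 and the other lines -0.89 to -0.91, a gap of 0.926 of the range. The second was the A939572 level of FASN, where CAKI2 had 7.63 and the others 8.34 to 8.37, a gap of 0.952 of the range. Without A498, ACLY had -0.90, and without CAKI2, FASN had -0.78, both called.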

How the results depend on the processing

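Of 420 recomputed comparison values, 365 kept their direction and side of the threshold or stayed near their value, 32 moved, 21 lost a call and 2 reversed. Of 379 for single probe sets or listed genes, 333 kept them, 43 lost a call and 3 reversed. Except where a value states it, the cause was not tested.

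Without the replicate block, limma called 38 genes higher and 29 lower, with 0 members lower (4 lower and 0 higher at an unadjusted p under 0.05), 0 member probe sets lower, 0 lower among the citrate and NADPH genes, 0 lower among the elongation partners, and 0 higher and 0 lower among the regulators. Mean differences are the same by construction, at -0.83 for ACLY (adjusted p = 0.171), -0.41 for ACACA (0.44), -0.81 for FASN (0.234), -1.02 for ACSS2 (0.201) and -0.73 for TECR (0.302).

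With each line left out, ACACA ranged from -0.46 to -0.34 and lost its call each time. HSD17B12 ranged from -0.19 to 0.000225, the last without CAKI2 and for its gene and its brightest probe set alike. Calls were 1237 to 1500 higher and 1395 to 1567 lower over all genes, and 4 members lower. Medians ranged from -0.645 to -0.495 for the elongation partners, -0.51 to -0.39 for the citrate and NADPH genes and 0.0239 to 0.0972 for the regulators, and 0 to 1 mitochondrial gene was higher. The second ME1 probe set ranged from -0.0134 (without ACHN) to 0.136, and the fourth of ACACB from -0.974 to 0.37 (without CAKI1).

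Without quantile normalization, 1 mitochondrial gene was higher and the line F test of ACSS2 gave 0.0644. With arrays centred on their medians, which gave 58.3% of calls as higher against 48%, ACACA had -0.31 (adjusted p = 0.0853), the elongation median was -0.52, 2 mitochondrial genes were higher, and the regulators' median was 0.147. The line F test then gave 0.0596 for ACSS2 and 0.080 for ME1, and 2 members passed. An offset of 1 gave 0.0511 for ACSS2.

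A stricter filter tested fewer genes and left 3 members lower (median -0.41), 5 member probe sets lower, a citrate and NADPH median of -0.49 and 1 mitochondrial gene higher. Without the variance trend, ACACA had -0.41 (adjusted p = 0.0573) and 3 citrate and NADPH genes were lower. Averaging all probe sets of a gene, dim ones included, left 3 members lower (median -0.42), FASN at -0.42 (adjusted p = 0.222), TECR at -0.26 (0.166), the elongation median at -0.46, 1 mitochondrial gene higher and 2 regulators lower. Without _s_at and _x_at probe sets, which removes ACLY, ACSS2 and FASN from the test, 1 member was lower (median -0.081), TECR stood at 0.21 (adjusted p = 0.581) and 3 citrate and NADPH genes were lower. With treatment left out of the model, the line F test gave 0.459 for ACLY, 0.573 for ACSS2, 0.151 for ME1 and 0.376 for TECR, and 0 members passed. Dim probe sets limit ACACB, and 4 arrays a group limit all tests.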

Other observations

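Several genes next to these enzymes differed in sign between lines, and those given here were named after their values were seen. ACSS1, the mitochondrial counterpart of ACSS2, had signals of 138.0, 332, 577 and 61.3 in treated ACHN, CAKI2, A498 and CAKI1, against 48.1, 359, 239 and 147 in DMSO. Its log2 differences were 1.38 in ACHN and 1.28 in A498, but -0.11 in CAKI2 and -1.09 in CAKI1 (0.36 ± 1.19, limma adjusted p = 0.508), while ACSS2 was lower in 4 of 4 lines. HACD4, a dehydratase of the elongation cycle, had 21.7, 209, 603 and 426 in treated ACHN, CAKI2, A498 and CAKI1, against 2.95, 532, 2052 and 1486 in DMSO. It was lower in CAKI2, A498 and CAKI1 by -1.30 to -1.79, and had 1.13 in ACHN, where its signal lay below the array medians under both conditions (-0.92 ± 1.39, limma adjusted p = 0.129). HSD17B8, on the mitochondrial list, had 0.71 in A498 and -0.71 in CAKI1 (-0.07 ± 0.61, limma adjusted p = 0.834). With 1 array per line and treatment, none of these differences between lines could be tested.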
